A study of Homo sapiens with 6 samples.

Results

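Gene expression of OVCAR5, a cancer cell line labelled as ovarian, was set against that of the colon cancer lines HCT116 and COLO205. Members were chosen by label: 2 of the 6 arrays of the series were OVCAR5 arrays, and the other 4 were labelled HCT116 or COLO205. In each line 1 culture had been given imetelstat, an oligonucleotide that blocks the RNA template of telomerase, and 1 a vehicle, both for 2 weeks. The control is called vehicle after the labels, whereas the methods name a mismatch oligonucleotide. A figure legend of the paper describes the control cells of the array experiment as untreated. All lines were grown with 10% fetal bovine serum and 1% penicillin and streptomycin, HCT116 in DMEM and OVCAR5 and COLO205 in RPMI1640. The groups were thus OVCAR5 with imetelstat or vehicle, and HCT116 and COLO205 with imetelstat or vehicle, with 1 array for each line and agent. Because OVCAR5 was the sole ovarian line, the line and its tissue of origin cannot be told apart. The spread between arrays of 1 side covers the agent and, for the colon side, the label, and is not the spread between independent cultures of 1 condition.

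Epithelial tissues are told apart by the transcription factors they keep on and by the surface proteins and mucins these cells display. Müllerian epithelium, which lines the oviduct and the uterus and from which most ovarian carcinomas are held to arise, is marked by PAX8, WT1 and the hormone receptors ESR1 and PGR. Epithelium of the gut is marked by keratin 20, villin and CEA family adhesion proteins, and that of the stomach and the pancreatic and bile ducts by trefoil peptides, MUC1 and the anterior gradient proteins.

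Each array gave a mean bead signal per probe, and 12187 genes had a named probe detected on at least 1 array. Detection p-values below 0.01 were reached by 15627 to 17276 of 47231 probes per array, 15733 and 16459 on the OVCAR5 arrays and 15627 to 17276 on the colon-labelled arrays. Values below are log2 signals, quantile-normalized over the 6 arrays. Background had not been subtracted, so that genes near background read about 6.5 to 7 on this scale and their differences are understated. The 2 OVCAR5 arrays had a Pearson correlation of 0.989 over 21099 probes with each other and of 0.886 to 0.893 with the colon-labelled arrays, where probes are not independent replicates. They differed at least 2-fold from each other in 63 genes and from a colon-labelled array in 1753 to 1969 genes. The arrays labelled COLO205 correlated with those of HCT116 at 0.976 to 0.987, about as closely as the imetelstat and vehicle arrays of 1 label (0.987 in each), so that results are also given against the HCT116 arrays alone.

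A gene was called apart if its lowest signal on one side lay above its highest signal on the other, and the distance between these 2 values was its gap. Of the 12187 genes, 3345 were apart and higher in OVCAR5 (27.4%) and 3972 were apart and lower (32.6%). Against the HCT116 arrays alone 4066 genes were apart and higher and 4802 lower, since fewer arrays have to be cleared. List counts against HCT116 alone therefore tend to be larger, and a larger count there is not a stronger result. A gap of at least 1, which is a 2-fold step, was reached by 539 genes that were higher (4.42%) and by 411 that were lower (3.37%). At a gap of at least 2 there were 159 genes higher (1.30%) and 70 lower (0.574%), so that the higher genes outnumbered the lower ones where the gaps were wide. The genes next to the limit of 1 were ANXA11 at 1.000 and TMEM214 at 0.999 on the higher side, and EDRF1 at -1.003 and ST13 at -0.997 on the lower side. In limma with Benjamini-Hochberg adjustment over all genes, 2616 genes were higher (21.5%) and 2896 lower (23.8%) in OVCAR5 at an adjusted p under 0.05. The median difference of all genes was -0.05. These p-values measure only the spread between the 6 arrays. Detection alone separated 469 genes that were detected on both OVCAR5 arrays and on 0 of the colon-labelled arrays, and 477 genes with the opposite pattern on all arrays.

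**Figure D1:**
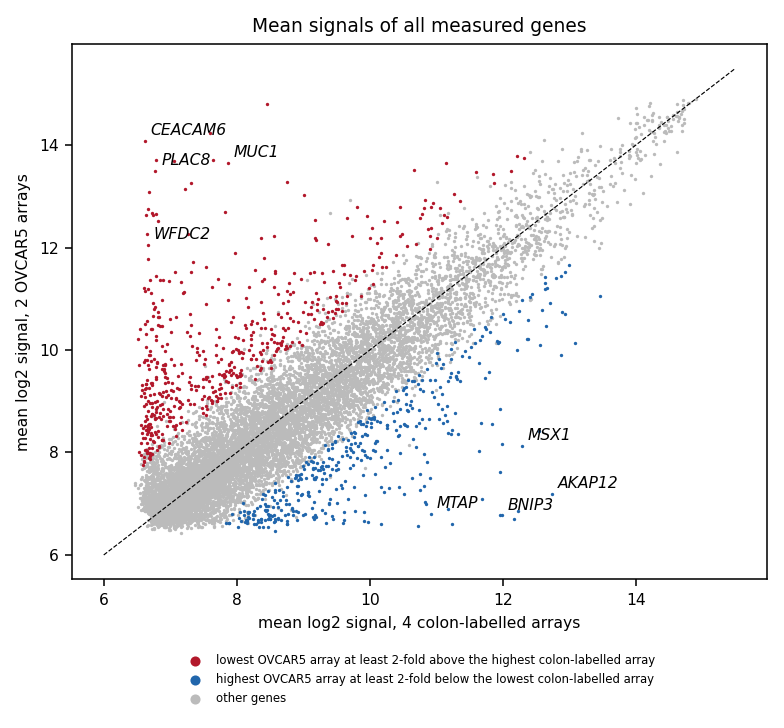
Mean log2 signal of each gene on the 2 OVCAR5 arrays (vertical axis) against its mean on the 4 colon-labelled arrays (horizontal axis). Red points are the 539 genes with a gap of at least 1 that were higher in OVCAR5, blue points the 411 that were lower, grey points the other genes, and the dashed line marks equal means.

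The gene farthest apart was CEACAM6, a CEA family adhesion protein of gut epithelium and of many carcinomas. Its log2 signal was 14.37 with imetelstat and 13.80 with vehicle in OVCAR5, against 6.61 and 6.48 in HCT116 and 6.65 and 6.74 on the arrays labelled COLO205. It was detected on both OVCAR5 arrays and on 0 of the others, and its signal in OVCAR5 was at least 135-fold higher, a bound set against the lowest detected signal of each colon-labelled array. PLAT, the tissue plasminogen activator, followed with 14.19 and 14.29 in OVCAR5, against 7.57, 7.67, 7.63 and 7.49 on the colon-labelled arrays, a difference of 6.65 ± 0.11 (SE). PLAC8, a small cysteine-rich protein first found in placenta, had 13.57 and 13.43 in OVCAR5, against 6.69 to 6.92 on the colon-labelled arrays, where it was not detected (at least 89.7-fold higher). TM4SF1, a membrane protein with a tetraspanin-like fold, had 14.24 in the imetelstat culture and 13.20 in the vehicle culture of OVCAR5, against 6.68 to 6.87 (at least 104-fold higher). Its imetelstat array lay 1.04 above its vehicle array, the widest such distance among these 15 genes. The gap of all of them lay between 5.28 and 7.06, and 8 of the 15 were not detected on any colon-labelled array.

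Secretory and mucosal proteins made up much of the rest of this group. S100P, a calcium-binding protein of gastric and pancreatic epithelium, had 12.91 and 13.28 in OVCAR5, against 6.61 to 6.76 on the colon-labelled arrays (at least 67.5-fold higher). AGR2, a protein disulfide isomerase needed for mucin folding, had 12.66 and 12.60, against 6.56 to 6.71 (at least 49.1-fold higher), although a second AGR2 probe gave a smaller gap of 2.70. CHST4 and GCNT3 encode a sulfotransferase and a branching enzyme that act on mucin-type glycans. CHST4 had 12.73 and 12.59 in OVCAR5, against 6.53 to 7.04, and GCNT3 had 13.46 and 13.07, against 6.84 to 7.56. MUC1, a mucin anchored in the membrane, had 13.81 and 13.48, against 8.20 and 8.15 in HCT116 and 7.35 and 7.76 on the arrays labelled COLO205, and was the highest of these 15 genes on the HCT116 imetelstat array. CLDN1, a protein of tight junctions, had 12.79 and 12.69, against 6.49 to 6.75, and was not detected on any colon-labelled array.

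The remaining genes of this group act in other ways. TXNIP, which binds thioredoxin and restrains glucose uptake, had 12.71 and 12.63 in OVCAR5, against 6.68 to 6.79 on the colon-labelled arrays (at least 50.4-fold higher). TGM2, which cross-links proteins, had 13.63 and 13.80, against 7.22 to 8.14, and its other 2 probes gave gaps of 3.26 and 0.81. TGFBI, a matrix protein induced by TGF-beta, had 13.15 on both OVCAR5 arrays, against 6.98 to 7.70. PLAAT4, a phospholipase-like gene induced by retinoids, had 13.49 and 13.89, against 6.65 to 7.95, where the HCT116 vehicle array stood 1.11 above the next. CD74, the invariant chain of MHC class II, had 12.29 and 12.76, against 6.67 to 7.01, and its other 2 probes gave gaps of 3.87 and 0.96. With the arrays labelled COLO205 left out, the 15 genes with the largest gap were the same.

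On the lower side AKAP12, a scaffold that binds protein kinase A, stood first. It had 7.17 and 7.20 in OVCAR5, against 12.57 and 13.38 in HCT116 and 12.45 and 12.57 on the arrays labelled COLO205. The difference was -5.55 ± 0.21 (SE). Its other 3 probes gave gaps of -1.49 to -2.55. LDHB, a subunit of lactate dehydrogenase, was not detected in OVCAR5, with 6.79 and 6.61, against 11.93 to 12.27 on the colon-labelled arrays (at least 35.0-fold lower). Its partner LDHA, the other main subunit of this enzyme, had 14.32 and 14.25 in OVCAR5, against 14.47 to 14.57, and did not pass limma's test (adjusted p = 0.10). BNIP3, a mitochondrial protein that takes part in mitophagy, had 6.84 and 6.71 in OVCAR5, against 11.77 to 12.15, and was not detected in OVCAR5 (at least 31.1-fold lower). GTSF1, a factor of the germline piRNA pathway, had 6.83 and 6.74, against 11.76 to 12.13, and ADIRF, a gene named for adipogenesis, had 6.76 and 6.95, against 11.74 to 12.78.

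MAGEB2, a cancer-testis antigen on the X chromosome, had 6.67 and 6.56 in OVCAR5, against 11.13 to 11.37 on the colon-labelled arrays (at least 18.4-fold lower). MTAP, which salvages methionine from methylthioadenosine, had 6.78 and 6.83, against 10.60 to 11.23, and was not detected in OVCAR5 (at least 14.8-fold lower). MSX1, a homeobox factor, was detected on both sides, with 8.36 and 7.91 in OVCAR5, against 12.08 to 12.42. DKK1, a secreted Wnt antagonist, had 8.43 and 8.39, against 12.07 and 12.53 in HCT116 and 12.76 and 12.79 on the arrays labelled COLO205, while a second probe gave a gap of -0.41. The other 6 of these 15 were NPW, a neuropeptide precursor, ADAM19, a membrane protease, TMEM158, a gene induced by RAS, TMSB15A, a thymosin that binds actin, PLIN2, a lipid droplet coat protein, and HAS3, a hyaluronan synthase, with gaps of -3.42 to -4.33. A second HAS3 probe gave a gap of -0.70. In all, 8 of the 15 were not detected on any OVCAR5 array, and the imetelstat and vehicle arrays of OVCAR5 differed by less than 1 in all 15. With the arrays labelled COLO205 left out, 12 of these 15 were again among the 15 with the largest gap on the lower side.

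**Figure D2:**
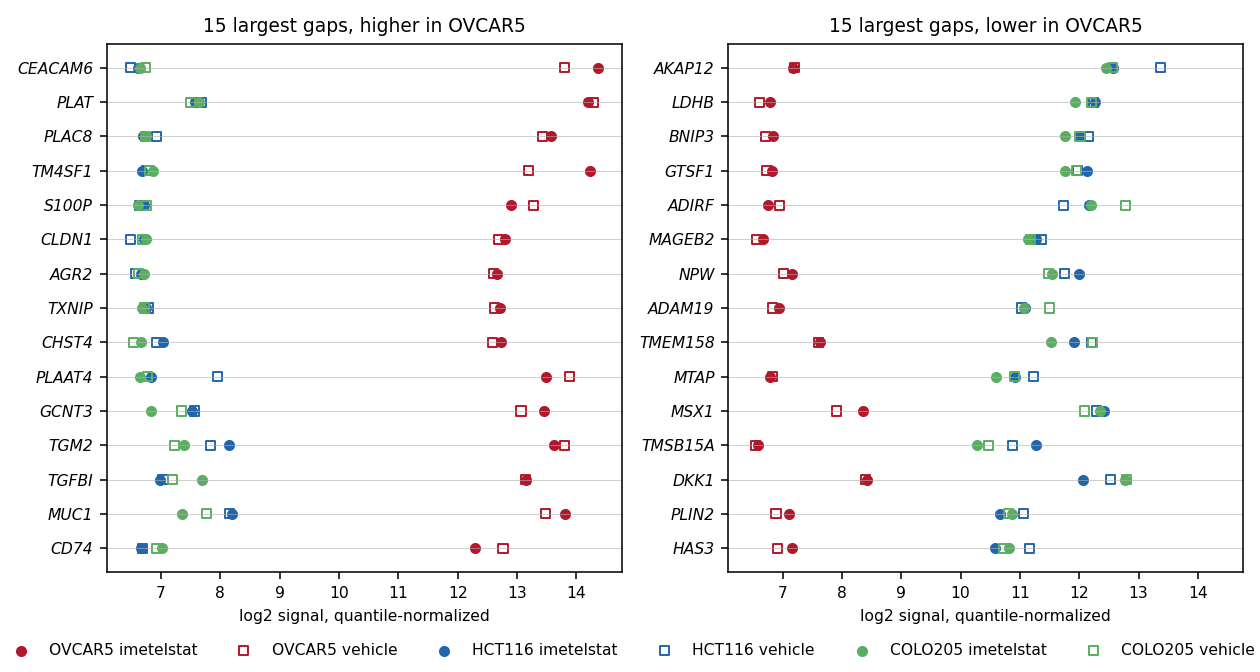
Log2 signal on each array (horizontal axis) for the 15 genes with the largest gap on the higher side (left) and on the lower side (right), with 1 point per array. The OVCAR5 points of the left panel lie between 12.29 and 14.37 and the colon-labelled points between 6.48 and 8.20, and in the right panel they lie between 6.55 and 8.43 and between 10.27 and 13.38.

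The promoters of the 3 genes with the largest gap on each side that have an entry in the RefSeq table used are shown for their CpG content, since CpG-poor and CpG-rich promoters form separate classes. Each runs from 250 bases before to 50 bases after the first listed start, in GRCh38.p14, is written 5′ to 3′ along the gene's strand, and has each CG pair in capitals. CEACAM6 is at chr19:41755280-41755579 on the plus strand, PLAC8 at chr4:83114680-83114979 and TM4SF1 at chr3:149377600-149377899, both on the minus strand. AKAP12 is at chr6:151239717-151240016 on the plus strand, LDHB at chr12:21657793-21658092 and BNIP3 at chr10:131981874-131982173, both on the minus strand. AKAP12 has 3 starts in the table and PLAC8 has 2.
CEACAM6: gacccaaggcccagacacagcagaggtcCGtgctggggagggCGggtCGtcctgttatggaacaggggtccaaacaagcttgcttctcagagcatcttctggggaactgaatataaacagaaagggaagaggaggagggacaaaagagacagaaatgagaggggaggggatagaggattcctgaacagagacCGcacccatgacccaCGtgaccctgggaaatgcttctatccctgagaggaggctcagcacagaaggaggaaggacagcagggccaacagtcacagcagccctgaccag
PLAC8: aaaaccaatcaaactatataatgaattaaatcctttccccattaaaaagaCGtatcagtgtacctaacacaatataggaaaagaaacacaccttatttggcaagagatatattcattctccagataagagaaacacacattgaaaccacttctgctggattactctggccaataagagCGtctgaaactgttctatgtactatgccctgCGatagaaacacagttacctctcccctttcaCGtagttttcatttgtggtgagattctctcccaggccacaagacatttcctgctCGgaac
TM4SF1: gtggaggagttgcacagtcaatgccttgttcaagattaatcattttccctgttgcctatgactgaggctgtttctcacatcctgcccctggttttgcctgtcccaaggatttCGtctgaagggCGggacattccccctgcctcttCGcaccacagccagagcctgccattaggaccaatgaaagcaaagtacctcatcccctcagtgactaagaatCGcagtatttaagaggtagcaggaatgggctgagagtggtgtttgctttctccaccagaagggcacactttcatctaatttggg
AKAP12: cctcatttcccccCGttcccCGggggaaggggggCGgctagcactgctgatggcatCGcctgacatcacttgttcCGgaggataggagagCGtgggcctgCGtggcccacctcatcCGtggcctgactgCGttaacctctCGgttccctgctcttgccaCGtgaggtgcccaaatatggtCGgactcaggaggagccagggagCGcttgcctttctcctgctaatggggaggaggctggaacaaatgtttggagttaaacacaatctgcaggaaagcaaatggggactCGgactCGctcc
LDHB: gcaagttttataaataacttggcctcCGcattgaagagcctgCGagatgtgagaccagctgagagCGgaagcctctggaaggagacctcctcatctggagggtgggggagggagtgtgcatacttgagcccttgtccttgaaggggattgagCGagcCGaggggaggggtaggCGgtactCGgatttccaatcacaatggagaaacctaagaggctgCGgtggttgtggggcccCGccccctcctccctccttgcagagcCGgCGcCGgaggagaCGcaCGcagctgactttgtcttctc
BNIP3: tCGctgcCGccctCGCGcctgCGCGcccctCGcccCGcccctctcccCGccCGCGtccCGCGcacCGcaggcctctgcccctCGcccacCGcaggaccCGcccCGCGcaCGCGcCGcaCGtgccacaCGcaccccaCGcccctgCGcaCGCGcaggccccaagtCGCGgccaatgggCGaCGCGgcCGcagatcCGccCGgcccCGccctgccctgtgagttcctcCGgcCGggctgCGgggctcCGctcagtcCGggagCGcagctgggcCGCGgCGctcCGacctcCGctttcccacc
The 3 promoters of genes higher in OVCAR5 held 5, 5 and 4 CG pairs, and those of the genes lower in OVCAR5 held 15, 14 and 48. Of the 15 genes with the largest gap on the higher side 12 had an entry, with a median of 5 CG pairs, and 3 of the 12 had a ratio of observed to expected CG above 0.6. All 15 genes on the lower side had an entry, with a median of 21 CG pairs and 10 above that ratio. Of the printed promoters on that side BNIP3 was above it (1.07), and AKAP12 (0.56) and LDHB (0.55) were below. The ratio was exceeded by 48.9% of all 27305 promoters of the table and by 80.9% of those of the 9726 measured genes with an entry. The median of these measured genes was 26 CG pairs, above that of either group of 15. CG pairs were counted on 1 strand, which holds as many as the other. The count is a description of the reference sequence, and methylation was not measured.

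The label of OVCAR5 was then set against lineage markers. Of 20 listed Müllerian and ovarian markers, 9 were measured, 6 had a named probe but were detected on none of the 6 arrays, and 5 had no named probe here. Among the undetected genes were the transcription factors WT1 and SOX17 and the hormone receptors ESR1 and PGR. PAX8 had 6.91 and 7.13 in OVCAR5, against 7.19, 7.22, 7.07 and 6.96 on the colon-labelled arrays, and was detected on 1 of the 2 OVCAR5 arrays and on 3 of the 4 others. The defining factors of the Müllerian lineage were therefore at or near background in OVCAR5, and the arrays are called here by the name of the line. Of the 9 measured markers 4 were apart and higher and 1 lower, and 5 passed limma's test, all higher. The list's median difference was 0.82, against -0.05 over all genes. A gene was measured if 1 array detected it, so that a gene detected on 1 side alone had passed through the side where it was high, and counts that hold many such genes cannot be read as a direction of the list. For those lists the counts over members detected on at least 1 array of each side are given too. Over the 9745 genes of that kind 27.9% were apart and higher in OVCAR5 and 32.3% lower.

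The members that were higher in OVCAR5 are secreted or membrane proteins and 1 transcription factor. WFDC2, the secreted protein HE4, had 11.99 and 12.10 in OVCAR5, against 6.54 to 6.81 on the colon-labelled arrays, where it was not detected (at least 32.8-fold higher). MUC16, which carries the antigen CA125, had 9.09 and 9.61, against 6.91 to 7.22. MECOM, a zinc finger factor often amplified in ovarian carcinoma, had 8.97 and 9.07, against 7.57 to 7.71, and FOLR1, the folate receptor alpha, had 9.35 and 9.30, against 7.68 to 8.40. MSLN, mesothelin, was the fifth member to pass (difference 0.82, adjusted p = 0.046 in limma), but its sides overlapped, with 10.85 and 11.48 in OVCAR5, against 10.99, 10.44, 10.07 and 9.88. CALB2, calretinin, had 11.21 with imetelstat and 9.32 with vehicle in OVCAR5, against 9.44 to 10.34, so that 1 OVCAR5 array lay above and 1 below all the others. Set against HCT116 alone, 4 of 8 measured members were higher and 2 lower.

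Markers of gut epithelium were mostly detected on 1 side alone. Of 32 listed intestinal markers 16 were measured, of which 13 were apart and higher and 2 lower, and limma called 10 higher and 2 lower. The median difference was 0.71. Of these 16 genes 10 were detected in OVCAR5 and on no colon-labelled array and 1 had the opposite pattern, so that these counts and the median draw largely on genes that passed through OVCAR5. Of the 5 detected on both sides 3 were apart and higher and 2 lower. The gaps of the higher ones were 2.33 for CEACAM1, 0.36 for EPS8L3 and only 0.07 for USH1C, and those of the lower ones were -1.50 and -0.36. KRT20, the keratin of differentiated intestinal cells, had 10.94 and 10.41 in OVCAR5, against 6.71 to 6.75 (at least 12.6-fold higher). MUC13, a membrane mucin of the gut, had 10.36 and 10.26, against 6.53 to 6.70. CEACAM5, which encodes carcinoembryonic antigen, had 9.46 and 10.03, against 6.67 to 7.04, and its relative CEACAM1 had 11.44 and 11.66, against 8.57 and 9.11 in HCT116 and 7.71 and 7.73 on the arrays labelled COLO205. Another CEACAM1 probe gave a gap of 0.03. PIGR, the receptor that carries IgA across mucosa, had 8.68 and 9.56, against 6.56 to 6.79. Villin (VIL1), LGALS4, TFF3 and CEACAM7 are also counted as higher, but each was detected on only 1 OVCAR5 array. Their gaps were small, at 0.19, 0.03, 0.03 and 0.28. The exceptions were CA2, a carbonic anhydrase, with 8.79 and 8.54 in OVCAR5, against 10.29 to 11.57, and ESPN, an actin bundler of microvilli, with 7.46 and 7.69, against 8.05 to 8.45. A further 15 intestinal markers were detected on no array, among them MUC2, FABP1, LGR5 and GPA33. When the arrays labelled COLO205 were left out, 13 of 15 measured members were higher and 2 lower.

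Of 30 listed markers of the stomach and of the pancreatic and bile ducts 18 were measured, and 15 were apart and higher in OVCAR5 and 2 lower, with the same counts of limma calls and a median difference of 1.45. Among the 18, 11 were detected in OVCAR5 alone and 3 on colon-labelled arrays alone, so that 14 had passed through 1 side. The 4 detected on both sides, MUC1, GCNT3, SLC44A4 and TSPAN1, were all apart and higher, by gaps of 0.49 to 5.51. Besides S100P, AGR2, GCNT3 and MUC1, PSCA, a GPI-anchored antigen of gastric and prostate epithelium, had 11.70 and 11.85 in OVCAR5, against 6.59 to 6.83 (at least 27.2-fold higher). TSPAN8, a tetraspanin of gastrointestinal carcinomas, had 10.68 and 11.55, against 6.62 to 6.88. LYZ, lysozyme, was also not detected on any colon-labelled array and had 9.928 and 11.004 in OVCAR5, against 6.82 to 6.90. The trefoil peptides TFF1 and TFF2, secreted by gastric mucous cells, were higher too, TFF1 at least 2.82-fold and TFF2 at least 4.99-fold. The 2 lower members were ANXA10, a gastric annexin, with 6.78 and 6.94 in OVCAR5, against 8.32 to 9.62, and the factor ONECUT2, with 6.88 and 6.92, against 7.67 to 8.14, and neither was detected in OVCAR5. A further 11 were detected on no array, among them CLDN18, CTSE and MUC6. Set against HCT116 alone, 15 of the 18 were higher and 3 lower.

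**Figure D3:**
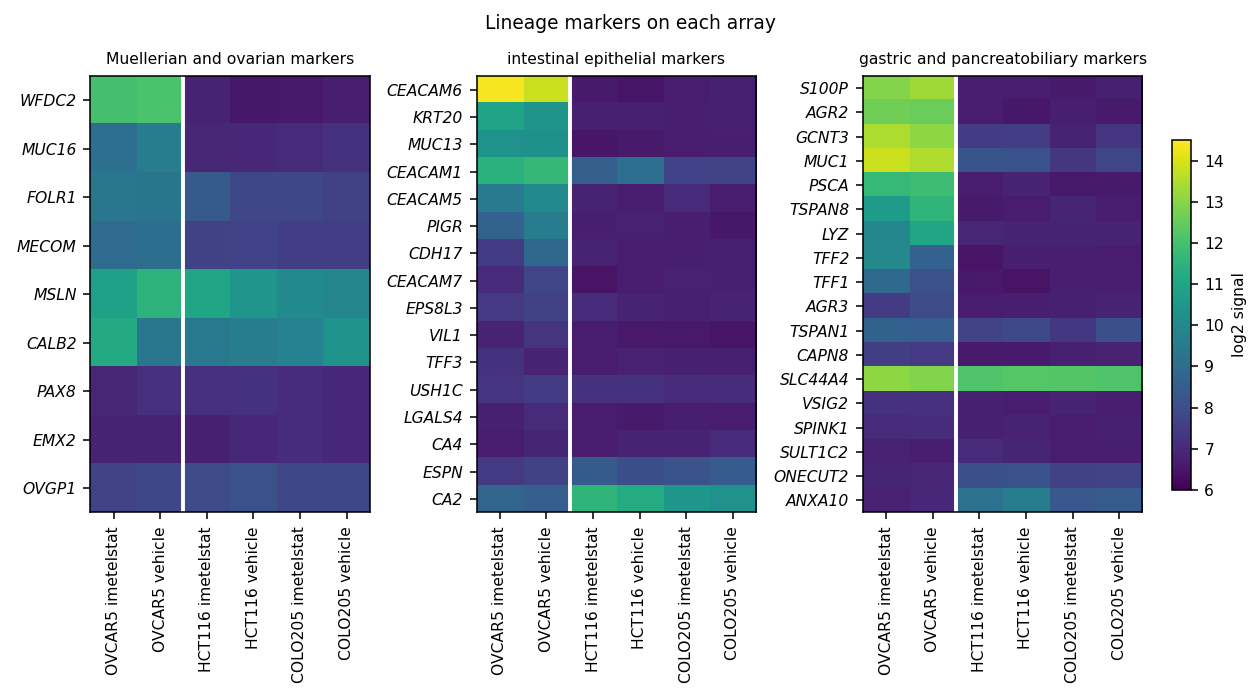
Log2 signal (colour) of the measured Müllerian, intestinal, and gastric and pancreatobiliary markers (rows) on each array (columns), with the OVCAR5 arrays left of the white line and the colon-labelled arrays right of it. WFDC2, CEACAM6, S100P and MUC1 are bright in OVCAR5, PAX8 is dim on all arrays, and CA2 and ANXA10 are brighter on the colon-labelled arrays.

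Transcription factors that set gut or Müllerian identity were next examined. Of 37 such factors 21 were measured, 12 were apart and higher and 3 lower, and limma called 12 and 2, with a median difference of 0.42. Of the 14 detected on both sides 8 were higher and 2 lower. FOXA2, a pioneer factor of endoderm, had 9.90 and 9.69 in OVCAR5, against 6.53 to 6.66 on the colon-labelled arrays, where it was not detected (at least 6.88-fold higher). Its paralogue FOXA1 had 9.72 and 9.48, against 7.83 to 7.99, whereas FOXA3 went the other way, with 7.12 and 7.39 in OVCAR5, against 8.08 to 8.34. The ETS factors of epithelial differentiation ELF3 and EHF were both higher. ELF3 had 12.06 and 12.00, against 10.21 to 10.89, and EHF had 9.38 and 9.99, against 8.38 and 7.84 in HCT116 and 6.94 and 6.92 on the arrays labelled COLO205. CDX2, the factor of intestinal identity, was named after its values were seen and did not separate the sides, with 7.83 and 8.77 in OVCAR5, against 8.16 to 8.34. HNF4A had no named probe here. Against the HCT116 arrays alone 13 of 20 measured factors were higher and 5 lower.

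The HOX genes, which mark position along the body axis, moved both ways within 1 cluster. Of 39 HOX genes 14 were measured, 5 apart and higher and 7 lower, and limma called 5 and 6. Of the 8 detected on both sides 2 were higher and 5 lower. In the HOXB cluster HOXB2 had 9.23 and 8.75 in OVCAR5, against 6.75 to 6.82 on the colon-labelled arrays, and HOXB3 had 8.28 and 8.55, against 6.73 to 6.92, and neither was detected on a colon-labelled array. A second HOXB3 probe was not apart. At the other end of the cluster HOXB8 had 8.12 and 7.66 in OVCAR5, against 9.63 to 10.17, and HOXB7 had 9.64 and 9.28, against 9.91 to 10.46. Between them HOXB5 and HOXB6 were higher by 0.54 and 0.93, although a second HOXB6 probe was not apart (difference -0.06), and HOXB4 was not detected in OVCAR5, with 7.04 and 6.78, against 7.35 to 7.70. Of the HOXC genes HOXC9 had 6.88 and 6.74, against 7.70 to 7.96, and was also not detected in OVCAR5. Another 15 HOX genes were detected on no array, and 10 had no named probe here.

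Over 187 genes of developmental transcription factor families 110 were measured, and the counts were nearly even, 35 apart and higher and 38 lower, with 32 limma calls on each side and a median of -0.04. These shares were near those of all genes, and of the 68 members detected on both sides 22 were higher and 20 lower. At a gap of at least 1 the list was less even, with 9 of 110 higher and 15 lower. Both shares lay above the 4.42% and 3.37% of all genes. These counts hold members that passed through 1 side, since 16 of the 110 were detected in OVCAR5 alone and 26 on colon-labelled arrays alone. Single members were far apart. FOXQ1, a forkhead factor, had 10.62 and 11.64 in OVCAR5, against 7.07 to 7.51. The HOX cofactors MEIS2 and MEIS1 were both higher, MEIS2 with 10.302 and 11.002, against 7.82 to 8.14, and MEIS1 with 8.82 and 8.86, against 6.88 to 7.14. SIX2, a homeobox factor of kidney progenitors, had 8.80 and 8.61, against 6.54 to 6.68, and HES1, a repressor downstream of Notch, had 10.36 and 10.21, against 8.06 to 8.43. On the lower side, after MSX1, TEAD2, a DNA-binding partner of YAP, had 7.24 and 7.23 in OVCAR5, against 10.05 to 10.35. LHX2, a LIM homeobox factor, had 6.69 on both OVCAR5 arrays, against 9.32 to 9.93, and RUNX3, a RUNX factor of gut epithelium and lymphocytes, had 6.85 and 6.82, against 9.43 to 9.84. Neither was detected in OVCAR5, where the signal of LHX2 was at least 5.97-fold lower and that of RUNX3 at least 5.96-fold. IRX4, an Iroquois factor of the heart ventricle, was at least 3.29-fold lower.

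Of 47 nuclear receptors 25 were measured, 8 apart and higher and 7 lower, with 4 limma calls on each side. Their shares apart were near the 27.4% and 32.6% of all genes, and 1 member on each side had a gap of at least 1, a share near the 4.42% and 3.37% of all genes. NR1H3, the sterol sensor LXR alpha, had 10.20 and 10.13 in OVCAR5, against 8.46 to 8.79, the only member higher by a gap of at least 1. Retinoid receptors went both ways. RXRA and RARA differed by 1.18 and 1.28 and RXRB by -0.75 (gap -0.40), while RARB was not apart and RARG and RXRG were detected on no array. NR2F1, an orphan receptor, had 7.26 and 6.90 in OVCAR5, against 8.37 to 9.18.

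Keratins, the intermediate filaments of epithelium, were more often higher than lower in OVCAR5. Of 26 listed 13 were measured, 7 apart and higher and 2 lower, with the same limma counts and a median difference of 0.98. Detection was in OVCAR5 alone for 2 and on colon-labelled arrays alone for 2. Among the 9 detected on both sides 5 were higher (55.6%) and 2 lower (22.2%), against 27.9% and 32.3% of all such genes. KRT7, the keratin of ductal and Müllerian epithelium, had 10.91 and 10.39 in OVCAR5, against 6.99 to 7.27, beside the KRT20 values given above. KRT23 had 10.02 and 10.91, against 6.71 to 7.07, and KRT80 had 10.27 and 9.75, against 7.46 to 8.34. KRT8, the main simple keratin, differed less, with 13.72 and 13.65, against 12.39 to 12.86. A second KRT18 probe ran slightly the other way, with a gap of -0.07. KRT15, a basal keratin, had 7.90 and 7.52 in OVCAR5, against 8.58 to 8.75.

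Genes of squamous and secretory surface epithelium were split. Of 33 listed 21 were measured, 11 apart and higher and 8 lower, and of the 12 detected on both sides 7 were higher and 4 lower. Limma called 11 and 7, with a median of 0.46, and the median over single probes had the opposite sign, -0.09. The protease inhibitors SLPI and PI3 were higher, SLPI with 11.65 and 11.38 in OVCAR5, against 6.95 to 7.13, and PI3 with 9.32 and 10.21, against 6.58 to 6.64. S100A9, a calcium-binding protein of inflamed epithelium and granulocytes, had 10.63 and 11.69, against 6.51 to 6.73 (at least 17.7-fold higher). Kallikreins divided: KLK11 had 10.51 and 10.78 in OVCAR5, against 6.56 to 7.03, whereas KLK7 had 6.80 and 6.79, against 8.46 to 9.67, and KLK6 had 9.01 and 9.42, against 10.41 to 11.31.

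Genes of epithelial junctions and polarity were more often higher. Of 35 listed 29 were measured, 18 apart and higher and 4 lower, with 16 and 4 limma calls and a median of 0.41. CDH1, E-cadherin, had 12.26 and 12.18 in OVCAR5, against 10.30 to 10.60. ST14, the membrane protease matriptase, had 11.13 and 11.11, against 8.95 to 9.33, and its inhibitor SPINT1 had 9.95 and 9.57, against 7.86 to 7.94. The 4 lower members were cadherins and a plaque protein. CDH3, P-cadherin, had 8.22 and 8.29 in OVCAR5, against 10.43 to 10.85, while the desmosome genes DSP, DSG2 and DSC2 were lower by gaps of -0.94, -0.82 and -0.72. One DSP probe of 3 was not apart. Against the HCT116 arrays alone 21 of the 29 were higher and 5 lower.

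Of 35 mesenchymal genes 19 were measured, 9 apart and higher and 4 lower, with the same limma counts, while CDH2, ZEB1, ZEB2, FN1 and SPARC were detected on no array. Among the 14 detected on both sides 8 were higher (57.1%) and 2 lower (14.3%), against 27.9% and 32.3% of all such genes. After TGFBI, the matricellular genes CCN2 and CCN1 were highest in OVCAR5, CCN2 with 12.42 and 12.95, against 7.26 to 8.30, and CCN1 with 10.86 and 11.09, against 7.55 to 8.75. NT5E, the ectonucleotidase CD73, had 11.30 and 10.18, against 8.19 to 9.23, and SNAI2, the factor SLUG, had 8.16 and 7.72, against 6.69 to 6.87. TPM2, a tropomyosin, had 10.76 and 10.64 in OVCAR5, against 12.91 to 12.99.

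Among claudins, the sealing proteins of tight junctions, 12 of 21 were measured, 8 apart and higher and 2 lower, with a median of 0.84 and the same limma counts. Detection was in OVCAR5 alone for 3 of the 12. The 9 detected on both sides gave 5 higher (55.6%) and 2 lower (22.2%), against 27.9% and 32.3% of all such genes. After CLDN1, CLDN10 had 9.81 and 9.75 in OVCAR5, against 6.61 to 6.88 (at least 6.81-fold higher), and CLDN11 had 9.56 and 10.57, against 6.71 to 7.06. CLDN15 was lower, with 7.75 and 7.79, against 8.32 to 8.51. Of 26 integrin subunits 17 were measured, 9 apart and higher and 2 lower, with 8 and 1 limma calls. The 12 detected on both sides gave 6 higher and 1 lower. ITGB2, the beta chain of leukocyte integrins, had 11.65 and 11.60 in OVCAR5, against 7.46 to 7.68, and ITGA1, which binds collagen, had 8.01 and 8.36, against 6.53 to 6.64. ITGA5, the fibronectin receptor chain, had 8.03 and 7.86, against 8.61 to 9.19.

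Antigens that antibodies against solid tumours have been raised to were more often higher in OVCAR5. Of 50 listed 35 were measured, 20 apart and higher and 10 lower, with 21 and 9 limma calls and a median of 0.77. The 28 detected on both sides gave 16 higher (57.1%) and 8 lower (28.6%), against 27.9% and 32.3% of all such genes. Besides CEACAM6, MUC1, PSCA and CEACAM5, CD24, a small glycoprotein bound by Siglec-10 in human, had 12.64 and 12.45 in OVCAR5, against 8.99 to 9.32. PTK7, a pseudokinase of planar polarity, was not detected in OVCAR5, with 6.78 and 6.63, against 8.81 to 9.60 (at least 4.35-fold lower). CD44, the hyaluronan receptor, had 10.44 and 9.98, against 11.96 to 12.71, and SLC39A6, the zinc transporter LIV-1, had 7.77 and 7.60, against 9.09 to 9.48. When the arrays labelled COLO205 were left out, 20 of the 35 were higher and 13 lower.

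Of 52 receptor tyrosine kinases 27 were measured, 11 apart and higher and 7 lower, with 7 and 6 limma calls. Detection was in OVCAR5 alone for 3 and on colon-labelled arrays alone for 7. Of the 17 detected on both sides 9 were higher (52.9%) and 2 lower (11.8%), against 27.9% and 32.3% of all such genes. ERBB2 had 11.02 and 11.10 in OVCAR5, against 9.26 to 9.60, and its partner ERBB3 had 9.84 and 10.42, against 8.58 to 8.73, although the other 2 ERBB3 probes were not apart. ROR2, a Wnt5a receptor, was not detected in OVCAR5, with 6.62 and 6.79, against 8.38 to 8.72. EPHB4 had 7.74 and 7.95, against 8.89 to 9.09. Among tetraspanins 22 of 30 were measured, 10 apart and higher and 8 lower, and the 18 detected on both sides gave 9 higher and 5 lower. TSPAN13 had 11.37 and 11.72 in OVCAR5, against 9.26 to 9.67, and TSPAN5 was not detected in OVCAR5, with 7.038 and 7.004, against 9.27 to 9.52.

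Enzymes that build Lewis antigens and mucin-type glycans were higher in OVCAR5 for most of their measured members. Of 44 listed 36 were measured, 23 apart and higher and 5 lower, with 23 and 4 limma calls and a median of 0.44. The 30 detected on both sides gave 20 higher (66.7%) and 5 lower (16.7%), against 27.9% and 32.3% of all such genes. After GCNT3, GALNT4, which starts O-glycans, had 9.67 and 9.76 in OVCAR5, against 6.89 to 7.15. FUT3, the Lewis fucosyltransferase, had 9.56 and 9.17, against 6.82 to 7.09, and ST6GALNAC1, which makes the sialyl-Tn antigen, had 9.15 and 8.77, against 6.54 to 6.81 (at least 3.85-fold higher). None of the 5 lower members had a gap beyond -0.33. Against the HCT116 arrays alone 24 of the 36 were higher and 8 lower.

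**Figure D4:**
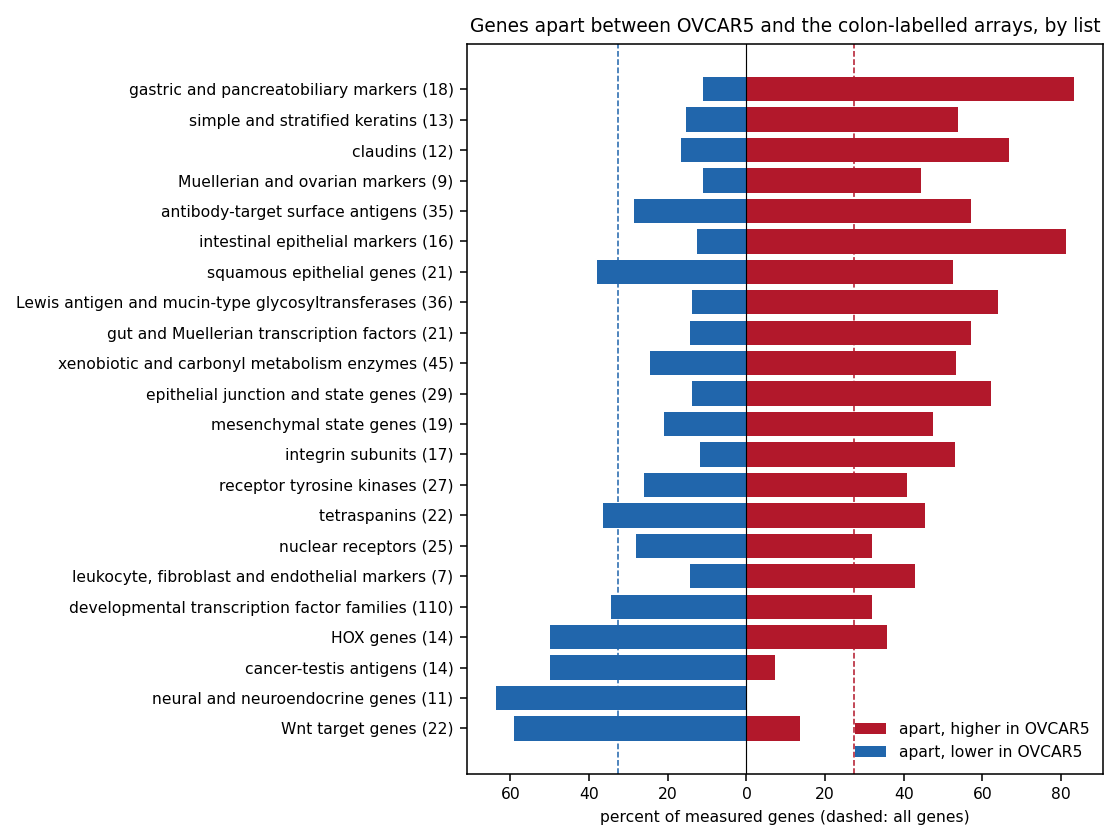
Percent of the measured genes of each of 22 lists (number measured in brackets) that were apart and higher in OVCAR5 (red, to the right) or lower (blue, to the left), ordered by the median difference. Dashed lines mark 27.4% and 32.6%, the shares over all 12187 genes, and the gastric and pancreatobiliary markers stand first and the Wnt targets last.

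Enzymes of xenobiotic and carbonyl metabolism differed in both directions, also within families. Of 58 listed 45 were measured, 24 apart and higher and 11 lower, with 23 and 10 limma calls and a median of 0.41. Detection was in OVCAR5 alone for 6 and on colon-labelled arrays alone for 8. The 31 detected on both sides gave 18 higher (58.1%) and 5 lower (16.1%), against 27.9% and 32.3% of all such genes. ALDH3A1, an aldehyde dehydrogenase, had 10.65 and 12.10 in OVCAR5, against 6.68 to 6.92 (at least 20.6-fold higher), with 1.45 between the OVCAR5 arrays. GSTT1, a glutathione transferase whose gene is lost in many people, had 9.85 and 9.93, against 6.57 to 6.83 (at least 7.36-fold higher). AKR1B10, an aldo-keto reductase, had 10.96 and 9.29, against 6.71 to 7.29, and CYP3A5 had 8.82 and 8.97, against 6.57 to 6.86. GSTO2 and GSTM1 ran the other way, GSTO2 with 10.68 and 10.55 in OVCAR5, against 12.00 to 12.05, and GSTM1 with 6.84 and 7.08, against 8.28 to 8.43.

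Targets of Wnt signalling, the pathway that keeps intestinal crypts dividing, were mostly lower. Of 29 listed 22 were measured, 3 apart and higher and 13 lower, with 2 and 11 limma calls and a median of -0.50. Of the 14 detected on both sides 1 was higher and 10 were lower. After DKK1, VSNL1, a calcium sensor, was not detected in OVCAR5, with 6.63 and 6.68, against 8.35 to 8.88. PHLDA1, a marker of crypt stem cells, had 11.05 and 10.50, against 12.24 to 12.88, although a second probe was not apart, and CEMIP, which degrades hyaluronan, had 7.15 and 8.12, against 8.68 to 9.48. SLC12A2, a chloride transporter, was higher, with 9.65 and 10.35, against 8.25 to 8.66. Against the HCT116 arrays alone, where more of all genes were apart too (4802 lower and 4066 higher), 18 of the 22 were lower and 3 higher.

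Cancer-testis antigens and neural genes were mostly detected on the colon-labelled arrays alone. Of 42 cancer-testis antigens 14 were measured, 1 apart and higher and 7 lower, with 1 and 6 limma calls, and 27 were detected on no array. Of the 14, 2 were detected in OVCAR5 alone and 12 on colon-labelled arrays alone, so that every one had passed through 1 side and the counts give no direction for the list. PRAME, MAGEA6 and MAGEA3 were not detected in OVCAR5, with bounds of at least 3.24-fold lower for PRAME, 2.92-fold for MAGEA6 and 2.34-fold for MAGEA3. MAGEA3 and MAGEA6 are nearly identical, so that their probes may read both. Of 32 neural genes 11 were measured, 0 apart and higher and 7 lower, with 0 and 6 limma calls, but 7 of the 11 were detected on colon-labelled arrays alone. Of the 4 detected on both sides 2 were lower and 0 higher. TUBB3, a neuronal tubulin, had 8.29 and 8.42 in OVCAR5, against 10.94 to 11.55, and ENO2, the neuronal enolase, had 8.07 and 7.98, against 11.08 to 11.96. SCG2, a granin of secretory granules, was not detected in OVCAR5, with 6.68 and 6.81, against 9.07 to 9.24.

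Of 22 markers of leukocytes, fibroblasts and endothelium, cells that a pure culture should lack, 7 were measured, 3 apart and higher and 1 lower, with 3 limma calls, all higher. Of the 4 detected on both sides 1 was higher and 0 lower. PTPRC, CD3E, COL1A2, DCN, VWF and CDH5 were among the 14 detected on no array. Other members were detected on both sides. CD68 and ACTA2 were detected on every array and were not apart. LCP1 and COL1A1 were detected on both OVCAR5 arrays and on 3 of the 4 others, LCP1 higher by a gap of 0.38 and COL1A1 not apart. The mean log2 signal over the 7 genes was 7.98 to 8.26 in OVCAR5 and 7.41 to 7.84 on the colon-labelled arrays. CD14, the monocyte receptor for lipopolysaccharide, had 9.45 and 8.85 in OVCAR5, against 6.77 to 6.89, and PECAM1, an endothelial adhesion protein, had 8.10 and 7.60, against 6.76 to 6.86, and both were detected in OVCAR5 alone.

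The genes apart by at least 2-fold were not spread evenly over the chromosomes, a view chosen after the values were seen. On chromosome 21, 19 of 124 measured genes were higher in OVCAR5 (15.3%, against 4.42% of all genes), the highest share of the 23 chromosomes compared. On the same chromosome 6 genes were lower (4.84%, against 3.37% of all genes). The median difference of its 124 genes was -0.002, against -0.05 over all genes. Among the higher ones were ITGB2, the proteases TMPRSS3 (at least 6.50-fold higher) and TMPRSS2 (at least 6.17-fold higher), and MX1, an antiviral GTPase, with 10.79 and 11.02 in OVCAR5, against 6.92 to 8.53. On chromosome 18, 19 of 164 genes were lower (11.6%, against 3.37%) and 1 was higher, with a median difference of -0.2. This median was not particular to chromosome 18, since chromosome 10 had -0.204 and chromosome 4 had -0.186. Among the lower ones were ME2, a mitochondrial malic enzyme, with 7.82 and 7.98 in OVCAR5, against 9.73 to 9.89, and RPRD1A, a regulator of RNA polymerase II, with 9.03 and 9.26, against 10.93 to 11.21. DNA copy number was not measured.

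MTAP and 3 of its neighbours on chromosome 9 were all lower. CDKN2A, which encodes the cell cycle inhibitor p16, had 6.51 and 6.73 in OVCAR5, against 7.91 to 8.32, and CDKN2B, its neighbour and relative, had 6.83 and 6.75, against 7.17 to 7.99. Neither was detected in OVCAR5, and a second CDKN2B probe was not apart. KLHL9, an adaptor of a ubiquitin ligase, was detected on all arrays, with 8.22 and 8.23 in OVCAR5, against 9.40 to 9.59. DMRTA1, on the far side of these genes, was near background on all arrays, with 7.06 and 6.89, against 6.60 to 6.74.

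**Figure D5:**
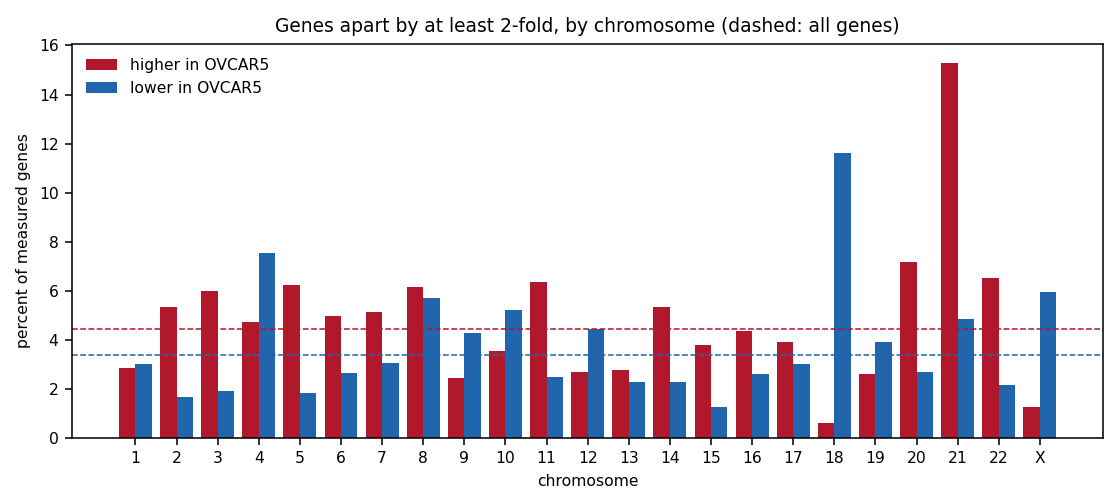
Percent of the measured genes of each chromosome (horizontal axis) that were apart by a gap of at least 1 and higher in OVCAR5 (red, left bars) or lower (blue, right bars). Dashed lines mark 4.42% and 3.37%, the shares over all 12187 genes, and chromosome 21 has the tallest red bar at 15.3% and chromosome 18 the tallest blue bar at 11.6%.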

How the data were processed

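Total RNA of OVCAR5, HCT116 and COLO205 was hybridized to Illumina bead arrays, 1 per line and agent, all on 1 chip. The authors deposited signal intensities, which are bead means on a linear scale from GenomeStudio, neither background-subtracted nor normalized between arrays, and with them detection p-values, which set each probe against the negative controls of its array. Intensities that the authors quantile-normalized with lumi were deposited as well and served as an alternative.

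Intensities were converted to log2 and quantile-normalized in limma 3.58.1 under R 4.3.3. Probes with a detection p under 0.01 on at least 1 array were kept. Of 47231 probes 30113 had 1 symbol, 8 several and 17110 none in the platform annotation, and a gene was represented by its detected probe with the highest mean. The sides were compared with lmFit and eBayes without covariates and with Benjamini-Hochberg adjustment at 0.05. The fit was tested on simulated data. An exact permutation of 2 against 4 arrays cannot go below a one-sided p of 0.0667 and was not used. A side detected on none of its arrays gave a bound, with the other side's mean set against the higher of the gene's own signal and the lowest detected signal of each array.

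Genes named are the 15 with the largest gap on each side, up to 5 members per list and side, the lineage markers and family partners. Members and lists were chosen with earlier results of these data known. CDX2 and the MHC class II, hypoxia and chromosome groups fall outside this rule and were chosen after their values were seen. Promoters came from RefSeq. Precision is limited by the number of arrays. Python 3.11.15, numpy 2.4.6, pandas 2.3.3 and matplotlib 3.10.9 made tables and plots.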

Additional observations from a re-analysis of the deposited data

Results flagged for a closer look

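Among 238 genes checked, 16 had 1 colon-labelled array far from the other 3, with a gap to its neighbour above Dixon's critical share of the range of the 4 arrays, and chance alone flags about 1 in 20 such groups. The HCT116 vehicle array was the high one for PLAAT4 (log2 signal 7.95), AKAP12 (13.38) and PSCA (6.83). The HCT116 imetelstat array was high for NR1H3 (8.79), ABCC2 (8.25) and CEMIP (9.48) and low for DSP (9.41). The COLO205 imetelstat array was high for CCN1 (8.75) and LCP1 (7.21) and low for SIX2 (6.54), SLPI (6.95) and NDRG1 (12.51). The COLO205 vehicle array was high for ADAM19 (11.50) and CSF1R (7.06) and low for RET (7.04) and HLA-DPA1 (7.19). Each of these genes stayed apart on the same side when any 1 array was left out, except that CSF1R, detected on the COLO205 vehicle array alone, had no value without it.

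CALB2 and COL1A1 ran opposite ways under the 2 agents, a difference that was not tested. CALB2 was higher by 1.61 in OVCAR5 than on the colon-labelled arrays among the imetelstat arrays and lower, by -0.63, among the vehicle arrays, so that the 2 values differed by 2.24. COL1A1 differed by 0.21 among the imetelstat arrays and by -0.16 among the vehicle arrays, 0.37 apart, with all its signals near background.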

How the results depend on the processing

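The 30 genes with the largest gaps stayed apart on the same side under all 570 combinations of gene and alternative. Nec background correction gave 959 genes higher and 843 lower by a gap of at least 1, against 539 and 411 without it, and a gap of at least 2 left 159 and 70. Without scaling 255 genes were lower by a gap of at least 1 and 1676 in limma, and the higher genes made up 55.1% of those apart, against 45.7% with quantile normalization, so that the larger side changed. With vehicle arrays only, 631 genes were lower by a gap of at least 1, and limma called 1430 higher and 1460 lower, while with imetelstat arrays only it called 1087 and 994. These fits have 1 OVCAR5 array, which is assumed to vary like the others. Leaving out 1 array at a time gave 1794 to 2683 limma calls higher and 1858 to 3033 lower, the lowest without the OVCAR5 imetelstat array.

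List medians near 0 changed sign. That of the developmental factors, -0.04, was 0.006 with median scaling and with no scaling, and 0.008 without the arrays labelled COLO205. That of the nuclear receptors, 0.06, was -0.007 for genes detected on at least 2 arrays, -0.081 over single probes, and -0.11 to 0.092 with 1 array left out. The squamous list's median was -0.086 over single probes. That of the leukocyte, fibroblast and endothelial markers was -0.051 with vehicle arrays only and -0.065 to 0.358 with 1 array left out. Among the 238 genes checked, the alternatives gave 22 values in which a gene was no longer apart and 0 with the sides exchanged, and LDHA was no longer apart under median scaling or without scaling, nor was CDKN2B without the HCT116 arrays. The cause of these changes was not tested. No paired analysis was possible because the labels carry no replicate numbers. A fit with the agent as a block, which matches arrays by agent and not by replicate, called 2426 genes higher and 2698 lower. Signal over background limits the dim genes, whose differences are understated.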

Other observations

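The genes of MHC class II, which present peptides to helper T cells, were examined as a group chosen after CD74 had been seen. Of 15 such genes 11 were measured, 7 apart and higher in OVCAR5 and 1 lower, with a median difference of 1.32, against -0.05 over all genes. The shares over all genes were 27.4% higher and 32.6% lower. CD74, which prompted the list, is in its counts and its median, so that these are no test of the list. Of the 8 detected on both sides 6 were higher and 0 lower. HLA-DRA, the alpha chain of HLA-DR, had 10.86 and 11.71 in OVCAR5, against 7.96 and 8.22 in HCT116 and 7.66 and 7.72 on the arrays labelled COLO205. HLA-DPA1 had 8.92 and 10.03 in OVCAR5, against 7.19 to 7.33, and HLA-DMA, which helps load peptides, had 10.69 and 11.07 in OVCAR5, against 8.86 to 9.77. In each of these 3 genes, and in CD74, the vehicle array of OVCAR5 lay above its imetelstat array. HLA-DRB4 had 10.04 and 11.07 in OVCAR5, against 7.67 to 8.16, but its other probes gave gaps of 0.67 and -0.06, and probes for genes of this family can read their close relatives. CIITA, the activator of this gene group, was not detected in OVCAR5, with 6.75 and 6.98, against 6.538 to 6.998.

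Genes that cells raise when oxygen is low were examined after BNIP3 and PLIN2 had been seen. Of 18 listed 16 were measured, 1 apart and higher in OVCAR5 and 14 lower, with a median difference of -1.27. The shares over all genes were 27.4% higher and 32.6% lower. BNIP3 and PLIN2, which prompted the list, are in its counts and its median, so that these are no test of the list. Of the 15 detected on both sides 1 was higher (6.7%) and 13 were lower (86.7%), against 27.9% and 32.3% of all such genes. PLIN2 is still counted among the 13. ENO2, named above among the neural genes, belongs to both lists. NDRG1, a stress-responsive gene, had 10.10 and 9.71 in OVCAR5, against 12.51 to 13.01, and ADM, the vasodilator adrenomedullin, had 11.18 and 10.92, against 12.96 to 13.92. ANKRD37 had 7.46 and 7.53, against 11.39 and 11.35 in HCT116 and 10.12 and 10.79 on the arrays labelled COLO205. SLC2A1, a glucose transporter, and LDHA differed by -0.29 and -0.24, did not pass limma's test, and were no longer apart under median scaling. VEGFA overlapped, with 7.98 and 7.76 in OVCAR5, against 7.93 to 8.28.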
